A study of Mus musculus with 5 samples.

Results

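Low-dose BMN/PAZA was compared with BMN alone over the genes whose low-dose value was the same, up to 1 constant per table, wherever the deposited tables repeat it. The main table holds 55348 gene symbols, of which 24374 were above 0 in the low-dose BMN/PAZA library or in the BMN library. Of these, 22650 (92.9%) kept their low-dose value within 0.5% of the constant in each other table that lists them, and they are described here as the agreeing genes. A further 425 lay off a constant and 1299 were listed in no other table, and both were left out. All 1299 unlisted genes had a low-dose value of 0, so leaving them out removes low genes of the low-dose library only. Trim69 and Gm49395 were the last genes kept, at 0.462% and 0.483% from the constant, with Gm49395 at 0.253 FPKM in low-dose BMN/PAZA and 0.499 in BMN. Gm25617 and Cntf were the first left out, at 0.553% and 0.558%, with Cntf at 0.986 FPKM in low-dose BMN/PAZA and 3.04 in BMN.

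RNA was measured in the Lewis lung carcinoma line LLC under 5 treatments, with 1 library for each. The BMN library received BMN673 alone, the low-dose and high-dose BMN/PAZA libraries received BMN673 loaded in the azacytidine polymer PAZA at a lower and a higher dose, the PAZA library received the empty polymer, and Control received neither. According to the labels the material was cultured LLC cells exposed for 72 h, whereas the study's methods describe tumors collected from mice a day after the last dose. The labels do not say which drug dose the BMN library had. A supplementary caption of the study gives BMN alone the same dose as low-dose BMN/PAZA where it compares these groups. No group was replicated, so every difference below is one between 2 libraries and carries no test. Values were taken to be FPKM, fragments scaled to transcript length and to the library's total. No unit is given, and the same library differs by a constant between tables, so a further scaling of unknown kind is present. Differences are log2 ratios of low-dose BMN/PAZA to BMN after adding 1 to both values. No read counts are given, so the depth behind a value is unknown.

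BMN673 (talazoparib) is an inhibitor of the poly(ADP-ribose) polymerases PARP1 and PARP2, which sense DNA breaks. It holds the enzyme on DNA, so that replication forks collapse into breaks that homologous recombination must repair. Azacytidine is a cytidine analog that is phosphorylated in the cell, enters RNA and DNA, and traps the DNA methyltransferases on DNA, which leads to loss of methylation at CG dinucleotides during later rounds of replication. LLC is a mouse lung carcinoma line that grows as a transplanted tumor in mice of its strain of origin.

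The 2 libraries were close for most genes. Among the 22650 agreeing genes, 13859 (61.2%) were higher in low-dose BMN/PAZA and 8791 were lower, with a median log2 ratio of 0.08 and quartiles of −0.17 and 0.30. A log2 ratio of at least 1 in size, called 2-fold from here on, was reached by 798 genes in the higher direction (3.52%) and by 432 in the lower direction (1.91%). The genes left out would have changed these counts. Among unlisted genes 81 were 2-fold lower and none could be higher, and among genes off a constant 76 were 2-fold higher and 28 were 2-fold lower. The shares of 3.52% and 1.91% are the background for each count of list members below. A gene under 1 FPKM in both libraries cannot reach 2-fold with 1 added, and most list members are above it, so the same calls taken over the 12210 agreeing genes at 1 FPKM or more in either library, 6.54% higher and 3.54% lower, are the closer background. Among those genes the split was even, with 50.8% higher. The split also depended on scale, since the columns sum to 633983 FPKM in low-dose BMN/PAZA and 538431 in BMN over agreeing genes, and 51.5% were higher once both sums were made equal. The excess of 2-fold higher over 2-fold lower genes turned with it, to 494 higher and 664 lower. The spread narrowed with level, and the middle 95% of log2 ratios ran from −1.22 to 1.43 at mean levels of 0.5 to 2 FPKM and from −0.93 to 1.11 at 20 to 100 FPKM. Above 100 FPKM the upper side widened again to 1.97. The plot of log2 ratio by level shows ribosomal protein genes at these levels, but their highest ratio was 1.78, under that limit. Snord33 and Gm10800 were among the genes beyond it.

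**Figure D1:**
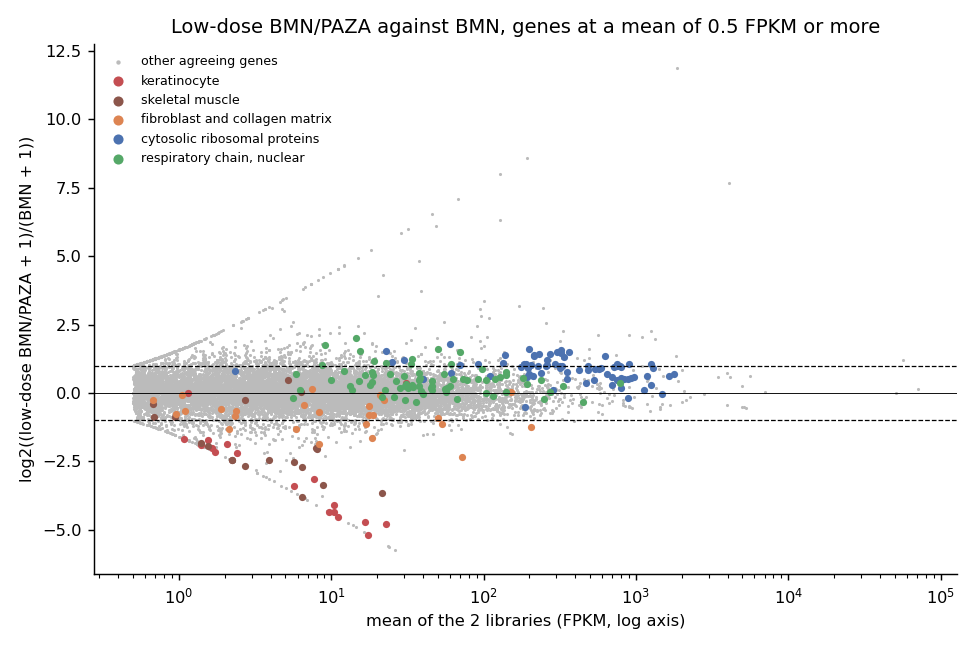
Each point is an agreeing gene, with the mean of the 2 libraries in FPKM on a log axis and the log2 ratio of low-dose BMN/PAZA to BMN, and the dashed lines mark 2-fold. Keratinocyte and skeletal muscle genes reach down to −5.17 and −3.80, whereas cytosolic ribosomal protein genes lie mostly above 0 with a median of 0.93.

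Genes of the epidermis had the lowest median of the 50 lists compared. Of 18 agreeing keratinocyte genes, 16 were 2-fold lower in low-dose BMN/PAZA, with a list median of −2.66, against the background shares of 1.91% and 3.54%. Krt5, the keratin of basal keratinocytes on chromosome 15 of GRCm38 from 101707070 to 101712898, was listed at 0 FPKM in low-dose BMN/PAZA and at 35.0 in BMN. Its partner Krt14 had 0.299 and 32.7 FPKM. Krt1, a keratin of the differentiating layers, was listed at 0 in low-dose BMN/PAZA and had 22.3 FPKM in BMN. Krt5 was above 0 in the other libraries, with 11.1 FPKM in Control, 1.41 in PAZA and 1.48 in high-dose BMN/PAZA. Here and below, Control and PAZA values were brought to the scale of this table by 1 constant per table. High-dose values were used as they stand beside BMN in another table.

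Other structural genes of the skin moved with the keratins. Flg, which encodes the filament-aggregating protein of the outer epidermis, fell from 44.8 FPKM in BMN to 0.67 in low-dose BMN/PAZA. Dsp, a desmosome plaque gene, had 20.8 FPKM in BMN and 0.0603 in low-dose BMN/PAZA. Perp, a desmosomal gene that is also a p53 target, had 20.6 and 0.256 FPKM in that order. The exceptions were Sbsn, at 35.0 FPKM in low-dose BMN/PAZA and 27.2 in BMN, and Sprr1b, at 1.15 and 1.14. Summed over the 18 genes, the level was 39.2 FPKM in low-dose BMN/PAZA and 272.6 in BMN, with 119.6 in Control, 52.8 in PAZA and 57.2 in high-dose BMN/PAZA. BMN was therefore the highest of the 5 libraries for this list, for 16 of the 18 genes one by one, and low-dose BMN/PAZA the lowest for 13. Lor was listed at 0 in both libraries, and Ivl and Krtdap were in no other table. In a bulk sample, fewer cells of a type and less RNA per cell cannot be told apart.

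Skeletal muscle genes showed a second block of low values. Of 25 agreeing genes, 13 were 2-fold lower and none 2-fold higher in low-dose BMN/PAZA, with a median of −1.84. Tnnt3, the troponin T of fast fibers, had 2.27 FPKM in low-dose BMN/PAZA and 40.4 in BMN. The fast myosin heavy chain gene Myh4 had 0.744 and 16.8 FPKM. Acta1, the actin of skeletal muscle, had 0.984 and 10.3 FPKM. Tnnc2, Myl1, Ckm, Mb, Tcap, Pvalb and Myog were listed at 0 in low-dose BMN/PAZA and above 0 in BMN. The other 12 genes did not pass 2-fold, and 5 of the 25 were higher, among them Tnnt1, at 6.40 and 6.26 FPKM, and Eno3, at 6.16 and 4.20. Here the order of libraries differed from that of the keratins, because the summed level was 228.5 FPKM in high-dose BMN/PAZA, 165.1 in BMN, 84.5 in PAZA, 27.1 in low-dose BMN/PAZA and 27.0 in Control. Low-dose BMN/PAZA thus stood beside Control, and BMN beside the high dose.

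The CG dinucleotides on which azacytidine acts are shown for the promoters of 4 genes past 2-fold, with Krt5 and Acta1 as lower genes and Rpl27 and Mfsd10 as higher ones. Each window runs from 250 bases before to 50 bases after the start in RefSeq on GRCm38.p6, 5′ to 3′ on the strand of the gene, with CG in capitals. The windows lie at chr15:101712856-101713155 (minus strand) for Krt5, chr8:123894726-123895025 (minus) for Acta1, chr11:101441995-101442294 (plus) for Rpl27 and chr5:34637163-34637462 (minus) for Mfsd10.
Krt5: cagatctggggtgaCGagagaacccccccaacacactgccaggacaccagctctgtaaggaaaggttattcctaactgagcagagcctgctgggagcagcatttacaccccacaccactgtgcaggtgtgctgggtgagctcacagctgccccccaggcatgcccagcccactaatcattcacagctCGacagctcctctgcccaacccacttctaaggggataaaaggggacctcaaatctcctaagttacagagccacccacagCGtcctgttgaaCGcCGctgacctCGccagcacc
Acta1: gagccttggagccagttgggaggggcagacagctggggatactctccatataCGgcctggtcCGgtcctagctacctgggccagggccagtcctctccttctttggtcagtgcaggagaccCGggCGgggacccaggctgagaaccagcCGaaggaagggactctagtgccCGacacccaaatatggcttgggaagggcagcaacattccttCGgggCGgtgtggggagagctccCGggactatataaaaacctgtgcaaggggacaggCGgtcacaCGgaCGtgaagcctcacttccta
Rpl27: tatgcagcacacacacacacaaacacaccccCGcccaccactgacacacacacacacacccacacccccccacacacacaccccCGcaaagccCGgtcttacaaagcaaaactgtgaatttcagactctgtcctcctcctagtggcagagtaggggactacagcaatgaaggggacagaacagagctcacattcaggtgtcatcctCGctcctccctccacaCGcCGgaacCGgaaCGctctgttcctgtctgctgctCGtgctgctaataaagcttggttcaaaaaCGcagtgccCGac
Mfsd10: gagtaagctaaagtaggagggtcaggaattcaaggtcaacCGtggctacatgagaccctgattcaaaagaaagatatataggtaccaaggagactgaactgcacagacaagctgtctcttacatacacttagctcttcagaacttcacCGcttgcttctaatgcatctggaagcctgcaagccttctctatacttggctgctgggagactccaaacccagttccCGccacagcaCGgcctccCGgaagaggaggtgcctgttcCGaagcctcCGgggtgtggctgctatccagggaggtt
The RefSeq start of Rpl27 lies upstream of the GENCODE start given below, so that its window ends before the latter. The windows hold 6, 12, 11 and 7 CG dinucleotides, in that order. A window was matched by symbol for 13584 agreeing genes, with a median of 17 CG. The median was 17.5 for the 340 genes 2-fold higher and 15 for the 254 genes 2-fold lower, and the quartiles overlapped, at 7 and 24 for the higher genes and at 5.25 and 26 for the lower genes. Among agreeing genes at 5 FPKM or more the median was 22 CG, with 20 for those 2-fold higher and 17 for those 2-fold lower. The lists differed more, with a median of 4 CG over 9 keratinocyte windows and 6 over 19 skeletal muscle windows. It was 22 over 57 ribosomal and 20 over 63 respiratory windows, not above that of genes at 5 FPKM or more. DNA methylation itself was not measured in these libraries.

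Collagen and fibroblast genes were lower as a group. Of 25 agreeing genes, 23 were lower in low-dose BMN/PAZA and 8 were 2-fold lower, with a median of −0.75. Postn, a matricellular protein of activated fibroblasts on chromosome 3, had 23.2 FPKM in low-dose BMN/PAZA and 120.6 in BMN. The proteoglycan gene Lum had 3.01 and 13.6 FPKM. Col1a1, the main chain of type I collagen, had 8.45 and 28.4 FPKM. Col3a1, of type III collagen, had 121.4 and 287.1 FPKM. Both Lox, which crosslinks collagen, at 7.84 and 7.04 FPKM, and Sparc, at 153.5 and 147.9, were higher by less than 2-fold, and no other gene of the list was higher. BMN was the highest of the 5 libraries for 18 of the 24 genes of this list that could be ranked, against 20.1% of the 10884 rankable agreeing genes. The summed level was 498.6 FPKM in low-dose BMN/PAZA and 924.7 in BMN, with 478.7 in Control. Cpa3 and Mcpt4, proteases of mast cells chosen after their values were seen, were also lower, at 6.54 and 24.4 FPKM and at 2.26 and 8.72 FPKM.

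**Figure D2:**
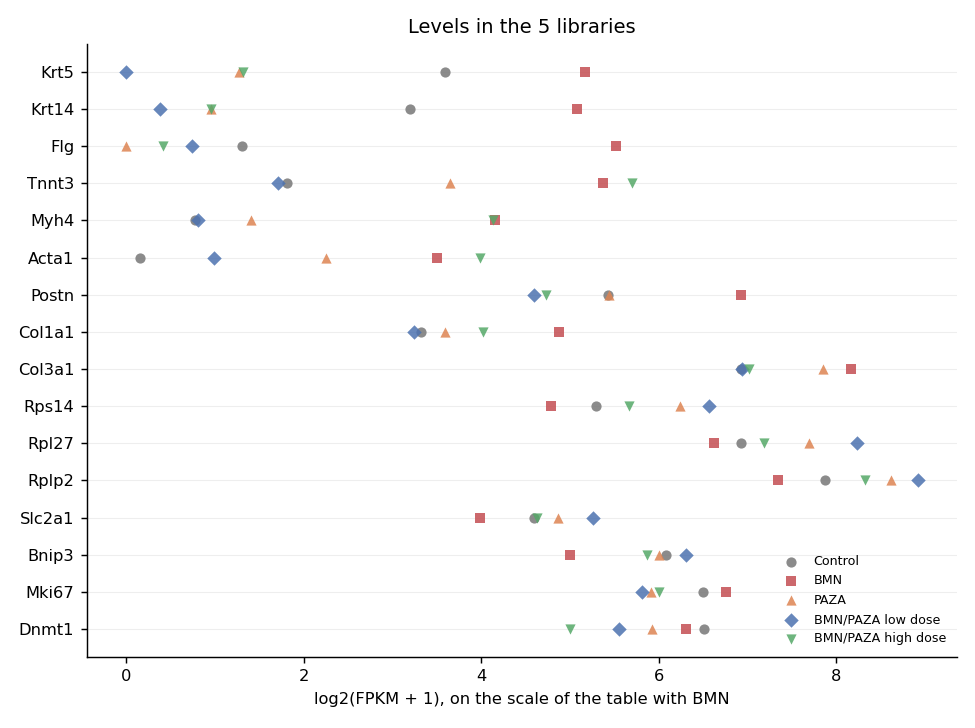
The level of 16 genes in each of the 5 libraries, as log2 of FPKM plus 1. PAZA and Control were brought to the scale of the table with BMN by 1 constant per table, and high-dose values were used without a constant. BMN is at the far right for Krt5, Krt14, Flg and the collagens, whereas for the ribosomal protein genes Rps14, Rpl27 and Rplp2 it is at the far left and low-dose BMN/PAZA at the far right.

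Immune cell markers did not share 1 direction. The labels' tissue, lung, had 8 of 12 epithelial markers listed at 0 in both libraries, among them Sftpc and Scgb1a1, while leukocyte genes were well above 0. All 18 macrophage markers were measured, with a median of 0.06 that turned to −0.09 after centring by length and to −0.13 at equal sums. Lyz2, a lysozyme gene of myeloid cells, had 422.3 FPKM in low-dose BMN/PAZA and 274.7 in BMN. The mannose receptor gene Mrc1 had 110.1 and 127.1 FPKM. Cd163, a scavenger receptor gene, fell 2-fold, from 7.19 to 2.42 FPKM.

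Of 9 monocyte markers, 8 were lower in low-dose BMN/PAZA, with a median of −0.57. Ly6c2, a surface gene of inflammatory monocytes, had 4.26 FPKM in low-dose BMN/PAZA and 17.1 in BMN. Ccr2, the receptor that draws monocytes to CCL2, had 19.07 and 44.5 FPKM. Itgb2, the shared integrin chain of leukocytes, had 14.2 and 31.7 FPKM and was the only one of 12 general leukocyte genes past 2-fold.

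Neutrophil and lymphocyte markers were sparse. Of 13 agreeing neutrophil genes 10 were higher, and S100a9, a calcium-binding protein of neutrophils, had 39.0 FPKM in low-dose BMN/PAZA and 12.7 in BMN. Ly6g, Camp, Ngp, Elane and Mpo, which define neutrophils and their precursors, were listed at 0 in both libraries. Among 19 T cell genes, Cd3e had 1.299 and 0.858 FPKM and Cd8a 0.272 and 0.270. Il7r, a cytokine receptor, had 5.80 and 1.92 FPKM. Of 16 NK and cytotoxic genes, 4 were off a constant and 1, Nkg7, was in no other table. Of the 11 agreeing, Klrd1, Gzmc and Klre1 were 2-fold higher, with Klrd1 at 6.13 and 2.22 FPKM. The list median of 0.10 turned to −0.12 after centring by length. Eomes, a transcription factor of these cells, had 10.6 and 12.7 FPKM. Control was above both libraries in summed level for this list, at 47.0 FPKM against 28.1 in low-dose BMN/PAZA and 22.2 in BMN. For T cell genes the sums were 40.1 FPKM in Control, 24.5 in low-dose BMN/PAZA and 17.7 in BMN. None of the 7 B cell genes reached 1 FPKM.

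The highest block of genes encoded cytosolic ribosomal proteins. Of 78 genes, all of which agreed, 75 were higher in low-dose BMN/PAZA and 29 were 2-fold higher, with a median of 0.93, against the background shares of 3.52% and 6.54%. The larger column sum of low-dose BMN/PAZA raises this median, and can raise the 2-fold count, relative to equal sums. After centring by length the median was 0.65. Rpl27, on chromosome 11 from 101442298 to 101445529, had 300.6 FPKM in low-dose BMN/PAZA and 97.3 in BMN. Rps14 had 93.6 and 26.6 FPKM. Rplp2, of the ribosomal stalk, had 483.7 and 161.2 FPKM. The exceptions were Rpl23a, at 154.8 and 218.4 FPKM, Rpl4, at 839.5 and 944.0, and Rpl23, at 1472 and 1496. BMN was the lowest of the 5 libraries for 69 of the 78 genes and low-dose BMN/PAZA the highest for 57, compared with 2084 and 2105 of the 10884 rankable genes. The summed level was 48296 FPKM in low-dose BMN/PAZA, 45318 in PAZA, 38297 in Control, 37840 in high-dose BMN/PAZA and 29578 in BMN.

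Ribosomal protein genes have many processed pseudogenes whose reads cannot be separated from their own with certainty, so single values are uncertain. Processed pseudogenes as a class had a median of 0.25 over 1898 genes, with 74.4% higher. The shared sequence of ribosomal protein genes at the start, a run of pyrimidines, was searched as CTTTCC on the strand of the gene from 10 bases before to 20 bases after the start. It was found in 8 of the 57 ribosomal windows (14%) and in 1.26% of all 27025 windows.

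Genes of the mitochondrial respiratory chain that lie in the nucleus were higher as well. Of 75 agreeing genes, 64 were higher and 11 were 2-fold higher, with a median of 0.43 that was 0.20 at equal sums. Ndufa7, a subunit of complex I, had 24.0 FPKM in low-dose BMN/PAZA and 5.20 in BMN. The ATP synthase gene Atp5g2 had 14.5 and 3.63 FPKM. Cox6c, a subunit of cytochrome c oxidase and the most abundant of the list, had 889.7 and 683.0 FPKM. Ndufa10, another complex I gene, was lowest, at 31.6 and 40.2 FPKM. The 13 protein genes of the mitochondrial genome did not move with them, with 9 of 13 lower and a median of −0.29 that was −0.53 after centring by length. Of these, mt-Nd3 was 2-fold higher, at 10.7 and 4.07 FPKM, whereas mt-Nd4 had 1144 and 1733 FPKM. The oxidase gene mt-Co1 had 7099 and 6991 FPKM.

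Ratios followed transcript length across genes. Among 10400 agreeing protein-coding genes at 1 FPKM or more, the median log2 ratio was 0.34 in the first of 10 equal groups by length, with the shortest transcripts (up to 1406 bases) and −0.21 in the last, with the longest (from 6857 bases). Spearman's rho between length and log2 ratio was −0.29 across genes, which share libraries and are not replicates. In the shortest group 13.9% of genes were 2-fold higher, and in the longest 1.54%. The medians ran the same way in PAZA against Control, from 0.26 to −0.32, and in high-dose BMN/PAZA against BMN, from 0.12 to −0.28. Low-dose BMN/PAZA against PAZA showed no such gradient, from −0.02 to 0.09. These comparisons share libraries with each other, and the part of transcript length in the ribosomal and respiratory values was not tested. Centred on the median of genes of like length, the ribosomal median was 0.65, the respiratory median 0.17 and the keratinocyte median −2.75.

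**Figure D3:**
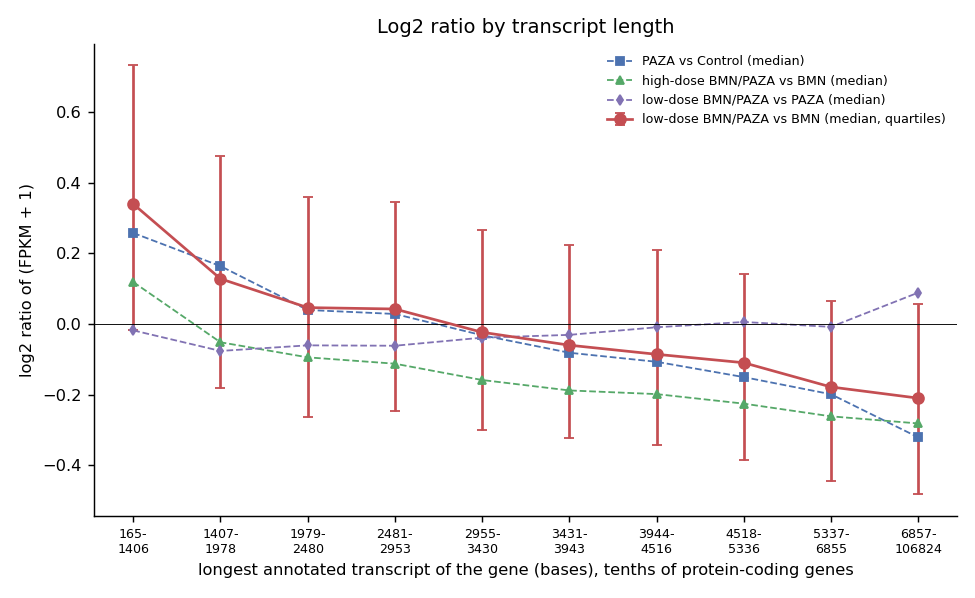
Median log2 ratio of low-dose BMN/PAZA to BMN (red, with quartiles) in 10 equal groups of protein-coding genes by the longest annotated transcript in bases, with the medians of 3 other comparisons. The red medians go down from 0.34 to −0.21 while the low-dose BMN/PAZA against PAZA medians stay between −0.08 and 0.09.

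Glycolysis and hypoxia genes were higher in low-dose BMN/PAZA. Of 33 agreeing genes 25 were higher and 3 were 2-fold higher, with a median of 0.44 that was 0.50 after centring by length and 0.24 at equal sums. Bnip3, a mitophagy receptor induced by low oxygen, had 78.3 FPKM in low-dose BMN/PAZA and 30.9 in BMN. The glucose transporter gene Slc2a1 had 37.2 and 14.9 FPKM. Slc16a3, which exports lactate, had 15.8 and 7.35 FPKM. Ldha, which makes lactate, was higher by less than 2-fold, at 337.1 and 195.5 FPKM. Hk1, a hexokinase of most tissues, went the other way, at 58.7 and 85.5 FPKM. BMN was the lowest of the 5 libraries for 15 of the 31 genes that could be ranked. Aldoa was listed at 0 in both libraries and Gapdh had 2.20 and 2.43 FPKM, although every cell uses both, so a low or 0 entry in these tables is not evidence that a gene is silent.

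**Figure D4:**
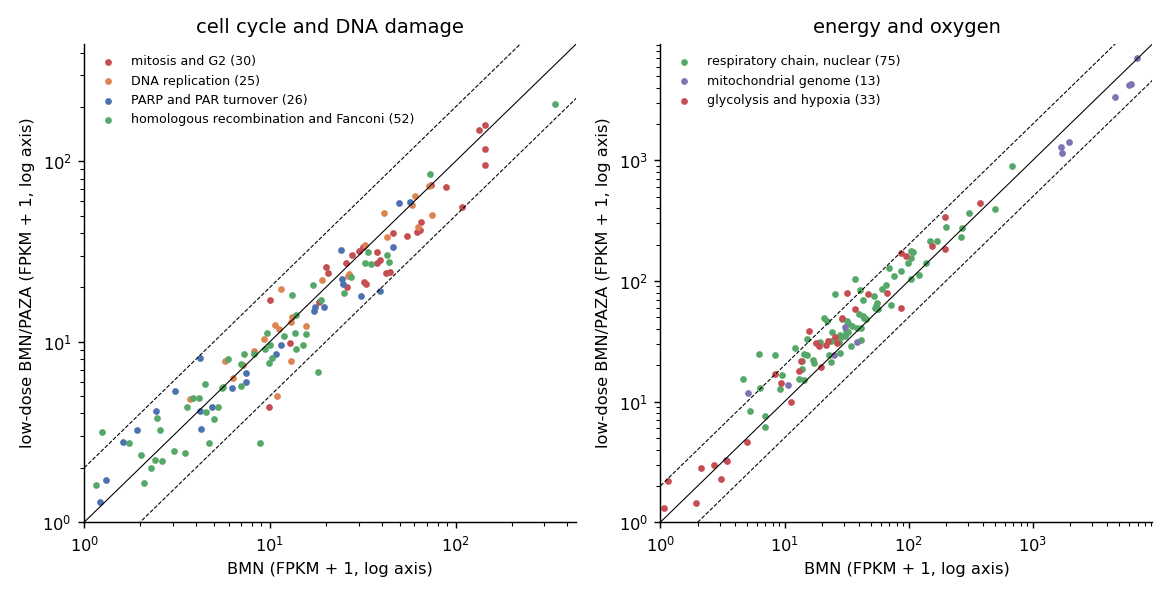
Levels in BMN (x axis) and low-dose BMN/PAZA (y axis), as FPKM plus 1 on log axes, for agreeing members of 7 lists (number in brackets), with lines at equal levels and at 2-fold. Most mitosis genes lie under the line of equal levels, 21 of 30, and most respiratory genes of the nucleus above it, 64 of 75.

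Genes of mitosis and the G2 phase were lower in most cases. Of 30 agreeing genes 21 were lower and 1 was 2-fold lower, with a median of −0.34, or −0.30 after centring by length and −0.56 at equal sums. Ttk, the spindle checkpoint kinase, had 3.34 FPKM in low-dose BMN/PAZA and 8.84 in BMN. Mki67, which encodes the Ki67 proliferation antigen, had 55.03 and 107.6 FPKM, a log2 ratio of −0.96. Other members did not follow, and Cdk1, the mitotic kinase, had 157.6 and 142.2 FPKM. Cenpa, the centromeric histone, was highest of the list at 15.96 and 9.01 FPKM. Low-dose BMN/PAZA was the lowest of the 5 libraries for 13 of the 30 genes and BMN the highest for 14, where 16.3% and 20.1% of all rankable genes had these places.

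DNA replication genes were split, with 14 of 25 agreeing members higher and a median of 0.05 that turned to −0.17 at equal sums. The replication helicase gene Mcm7 had 71.7 FPKM in low-dose BMN/PAZA and 71.2 in BMN. Chaf1a, a histone chaperone of replication, was the single member 2-fold lower, at 3.98 and 9.85 FPKM. Tk1, a thymidine kinase, was highest at 18.5 and 10.5 FPKM. As many as 16 of the 41 members of this list were left out as off a constant, among them Pcna and Tyms, so the list is described from the remaining genes only. Of 20 agreeing cyclin and CDK inhibitor genes none was 2-fold different, and Cdk4 had 88.1 and 55.02 FPKM whereas Ccnd1 had 48.2 and 62.9.

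The genes closest to the drug target were mostly within 2-fold. Of 26 agreeing genes of PARP enzymes and of poly(ADP-ribose) turnover, 16 were lower, against 6013 of the 12210 agreeing genes at 1 FPKM or more. The list median was −0.16, or −0.06 after centring by length and −0.36 at equal sums. Parp1, the main target of BMN673, had 14.6 FPKM in low-dose BMN/PAZA and 18.5 in BMN. Parp2, the second target, had 7.59 and 9.83 FPKM, and it was 23.9 in Control. Parg, the glycohydrolase that removes poly(ADP-ribose) chains, was the one member 2-fold lower, at 18.1 and 38.1 FPKM. Low-dose BMN/PAZA was its lowest library, with 35.7 FPKM in Control, 26.8 in PAZA and 29.0 in high-dose BMN/PAZA. Hpf1, the cofactor that directs PARP1 to serine residues, had 57.4 and 48.5 FPKM. Parp6 was highest of the list, at 7.08 and 3.18 FPKM.

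Homologous recombination and Fanconi anemia genes, the pathway that repairs the breaks left by trapped PARP, were also mostly within 2-fold. Of 52 agreeing genes 31 were lower, 2 were 2-fold lower and 1 was 2-fold higher, with a median of −0.16, or −0.04 after centring by length and −0.33 at equal sums. Gen1, a nuclease that cuts Holliday junctions, had 5.82 FPKM in low-dose BMN/PAZA and 17.2 in BMN. Fancc, a subunit of the Fanconi core complex, was the member 2-fold higher, at 2.14 and 0.252 FPKM. Sfr1, a recombination cofactor with the highest level of the list, had 207.1 and 342.1 FPKM. Its level was 354.6 FPKM in Control, 257.0 in PAZA and 199.9 in high-dose BMN/PAZA, so the 3 libraries with PAZA were below the 2 without it. Blm, a helicase that dissolves recombination intermediates, had 29.2 and 41.6 FPKM, and Topbp1, which activates the ATR kinase, 83.6 and 71.6.

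Among genes of excision, mismatch and end-joining repair, 35 of 49 agreed, with 19 higher and a median of 0.06 that turned to −0.13 at equal sums. Mutyh, a glycosylase for oxidised bases, was the one member past 2-fold, at 1.55 FPKM in low-dose BMN/PAZA and 0.0728 in BMN. Xrcc6, the Ku70 subunit of end joining, had 23.2 and 36.5 FPKM. The mismatch gene Msh6 had 16.2 and 25.9 FPKM. Of 28 agreeing p53 targets 16 were lower, and Perp, already counted with the skin genes, was the one 2-fold lower. The p53 inhibitor gene Mdm2 had 23.3 and 27.8 FPKM, and Ccng1 had 23.5 and 27.4. Pmaip1 and Bbc3, which encode the death-promoting proteins NOXA and PUMA, had 1.98 and 4.67 FPKM and 0.414 and 1.505 FPKM. The other 12 targets were higher, none past 2-fold, with Psrc1, a spindle gene, at 1.79 and 0.570 FPKM.

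On the side of azacytidine, 15 of 20 genes that write, read or erase DNA methylation were lower. Dnmt1, the maintenance methyltransferase that azacytidine traps, had 46.04 FPKM in low-dose BMN/PAZA and 78.2 in BMN, and Dnmt3a, which methylates new sites, had 4.13 and 6.41. The other members of that family were under 1 FPKM and not lower, with Dnmt3b at 0.0805 and 0.0626 FPKM and Dnmt3l at 0.322 and 0.225. Mbd1, a reader of methylated CG and the one member that was 2-fold lower, had 3.76 FPKM in low-dose BMN/PAZA and 9.39 in BMN. Hells, a remodeler that opens chromatin for methylation, had 105.2 and 163.1 FPKM. Its level was 151.6 FPKM in Control, 132.9 in PAZA and 106.6 in high-dose BMN/PAZA. Trim28, a corepressor that silences retroelements, had 69.8 and 83.8 FPKM. The list's median of −0.28 was −0.22 after centring by length and −0.48 at equal sums.

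Azacytidine must be carried into the cell and phosphorylated before it acts. Of 19 agreeing genes of its uptake and activation, 12 were lower and 1 was 2-fold higher, with a median of −0.15, or −0.38 at equal sums. Uck2, the uridine-cytidine kinase of the first step, had 49.3 FPKM in low-dose BMN/PAZA and 61.8 in BMN. Cmpk1, the kinase of the next step, had 151.7 and 186.9 FPKM. Nme2, a nucleoside diphosphate kinase, was 2-fold higher at 71.6 and 31.4 FPKM. Uckl1 was higher than in BMN, at 7.35 and 4.10 FPKM, yet below the 16.7 FPKM of Control. The nucleoside carrier gene Slc29a1 had 1.27 and 1.08 FPKM.

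Genes that are commonly silenced by promoter methylation were mostly near 0. Of 36 germline genes 21 agreed and 9 of them reached 1 FPKM, and no direction is read from the list, because members listed at 0 in BMN stayed in through their low-dose value while Sycp1 and Magea5, at 0 in low-dose BMN/PAZA, were in no other table and were left out. Rhox5, a homeobox gene that is methylated in somatic tissue, already had 834.8 FPKM in BMN and had 963.6 in low-dose BMN/PAZA. Its level was 848.5 FPKM in Control and 859.5 in PAZA, so it was high in every library. The genes past 2-fold upward, both of the piRNA pathway, were Asz1, at 1.13 FPKM and listed at 0 in BMN, and Tdrd9, at 3.05 and 0.996. Sycp3, of the meiotic axis, was the one 2-fold lower, listed at 0 in low-dose BMN/PAZA and at 1.10 FPKM in BMN. Among 31 imprinted genes, whose parental copies differ in methylation, the median was 0.06. H19, a maternally expressed noncoding RNA abundant in muscle, was 2-fold lower, at 0.198 and 3.29 FPKM, and it was listed at 0 in Control, with 4.08 FPKM in PAZA and 5.19 at the high dose.

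The study proposes uptake of the PAZA carrier through fibronectin and clathrin, and the genes of these routes were compared as a list. Of 33 agreeing genes 21 were lower, with a median of −0.17, or −0.08 after centring by length and −0.40 at equal sums. Fn1, fibronectin itself, had 660.2 FPKM in low-dose BMN/PAZA and 510.3 in BMN. Itga5, the alpha chain of its main receptor, had 4.56 and 2.60 FPKM, with 3.99 in Control and 2.32 in PAZA. Itga3, the alpha chain of a laminin receptor, was the single gene 2-fold higher, at 42.8 and 16.7 FPKM, and the other libraries lay between 20.7 and 23.6. The clathrin heavy chain gene Cltc was level at 121.6 and 118.0 FPKM. Cav1, of the caveolar route, had 364.0 and 490.6 FPKM. Among 11 drug efflux and drug response genes, Abcc1, an exporter, had 11.5 and 5.56 FPKM and none passed 2-fold.

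Immune signaling genes were thinned by the agreement rule. Of 36 interferon-stimulated genes 29 were off a constant and 7 remained, of which 4 were higher. The agreeing members included Oasl1 at 4.08 FPKM in low-dose BMN/PAZA and 1.403 in BMN and Ifi27l2a at 7.65 and 12.3. Nothing about an interferon response can be read from 7 genes. Of 23 genes of MHC class I presentation 14 remained, none past 2-fold, and the class I gene H2-D1 had 236.8 and 152.4 FPKM. The chaperone genes Calr and Canx were lower, by less than 2-fold, at 701.1 and 985.1 FPKM and at 716.3 and 929.0. H2-Ab1, a class II chain of antigen-presenting cells, was 2-fold lower, at 29.2 and 63.7 FPKM, and H2-Eb1 had 7.19 and 13.0.

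Among 25 agreeing checkpoint genes, 3 were 2-fold higher and 1 was 2-fold lower. Tnfrsf9, the costimulatory receptor 4-1BB, had 16.9 FPKM in low-dose BMN/PAZA and 6.20 in BMN, yet Control had 15.6. Nt5e, the adenosine-producing enzyme CD73, had 25.4 and 11.04 FPKM. Cd226, an activating receptor of lymphocytes, had 1.746 and 0.181 FPKM. Cd80, a ligand for T cell costimulation, was 2-fold lower, at 1.12 and 4.13 FPKM. The signal Cd47, which inhibits phagocytosis, had 109.4 and 69.5 FPKM.

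Of 34 chemokine genes 24 agreed, 2 of them 2-fold higher and 3 of them 2-fold lower, and the list median of 0.13 turned to −0.015 after centring by length and to −0.0031 at equal sums. Pf4, the platelet chemokine CXCL4, had 118.3 FPKM in low-dose BMN/PAZA and 53.02 in BMN. Ccl8, a monocyte attractant, had 33.0 and 15.5 FPKM, and Control was higher than both at 41.1. The lower genes were Ccl27a, a chemokine of keratinocytes, at 1.09 and 6.69 FPKM, Cxcl12, of stromal cells, at 1.85 and 7.11, and Cxcl5, at 1.19 and 5.76. Ccl27a and Cxcl12 thus went the same way as the keratin and collagen lists. Among 23 growth factors and interleukins, Csf2, which encodes GM-CSF, had 3.84 and 0.851 FPKM, and Tgfb2 had 1.62 and 0.0658. Spp1, osteopontin, was the most abundant and was level, at 2786 and 2835 FPKM.

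Of 22 agreeing genes of metalloproteinases and their inhibitors 11 were higher and 11 lower, with a median of −0.03, and 3 proteases rose 2-fold. Mmp12, the macrophage elastase on chromosome 9 from 7344381 to 7369499, had 150.7 FPKM in low-dose BMN/PAZA and 39.4 in BMN, a log2 ratio of 1.91. Mmp10 had 9.31 and 2.44 FPKM, and the collagenase gene Mmp13 had 19.8 and 8.09. At the other end Mmp3, the stromelysin gene, had 4.10 and 9.08 FPKM, and the gelatinase gene Mmp2 had 5.69 and 10.5. In the other libraries Mmp12 had 193.8 FPKM in PAZA, 135.3 in Control and 93.8 at the high dose, so BMN was the low one. Nos2, the inducible nitric oxide synthase, had 13.1 and 3.68 FPKM, and Control had 13.2. C2, a complement protease at 10.1 and 2.35 FPKM, also had its lowest value in BMN.

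Few genes of the stress and signaling lists passed 2-fold. Of 24 NRF2 targets 18 were higher and 4 were 2-fold higher, although the list median of 0.17 became −0.018 when both columns were brought to the same sum. Ftl1, the ferritin light chain, had 95.6 FPKM in low-dose BMN/PAZA and 43.0 in BMN, and Gstp1, a glutathione transferase, 16.6 and 7.08. Txnrd1, a thioredoxin reductase under the same factor, was lower at 67.1 and 110.6 FPKM. The heat shock gene Hspa1b had 5.09 and 1.81 FPKM while Hsp90aa1, Hspd1 and Hspa4 were lower, with Hspa4 at 220.8 and 341.8. Among 24 immediate early genes Egr1, at 1.28 and 4.72 FPKM, and Klf4, at 1.60 and 5.08, were 2-fold lower. None of 26 genes of the RAS and MAPK pathway and none of 28 genes of the unfolded protein response passed 2-fold. In the epithelial and mesenchymal list Epcam was 2-fold lower, at 0.0966 and 1.71 FPKM, and Vim, a mesenchymal filament gene, had 1443 and 1273.

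**Figure D5:**
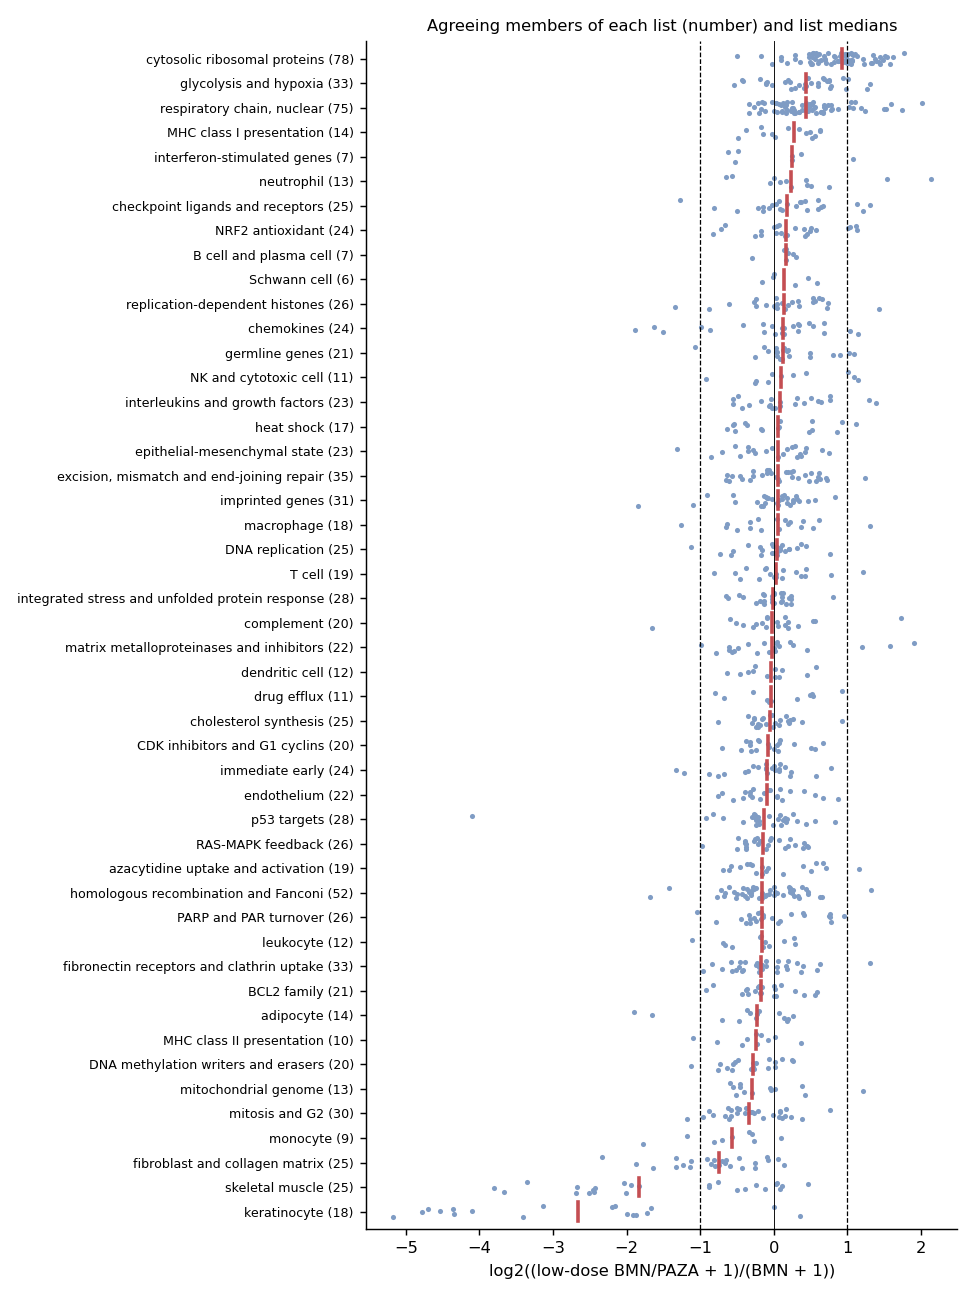
Log2 ratios of low-dose BMN/PAZA to BMN for the agreeing members of each list with at least 5 of them (number in brackets), with the list median as a red bar and 2-fold as dashed lines. Keratinocyte, skeletal muscle and collagen medians stand at −2.66, −1.84 and −0.75, and ribosomal, hypoxia and respiratory medians at 0.93, 0.44 and 0.43.

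The single genes furthest apart were mostly short or repetitive. Among the 30 genes at the ends of the ranking (15 each way, at 5 FPKM or more in either library), 20 had a longest transcript under 200 bases. Snord33, a small nucleolar RNA within a ribosomal protein gene, had 3748 FPKM in low-dose BMN/PAZA and was listed at 0 in BMN. Snora44 went the other way, listed at 0 in low-dose BMN/PAZA and at 29.1 FPKM in BMN. Small nucleolar RNAs moved in both directions, with 32 of 64 agreeing genes 2-fold higher and 14 of 64 2-fold lower. Gm10800, a predicted gene on chromosome 2 from 98666547 to 98667301, had 8147 FPKM in low-dose BMN/PAZA, 39.3 in BMN, 29.6 in PAZA and 21.6 in Control. Its neighbour Gm10801, 253.9 and 2.22 FPKM, and Gm21738 on chromosome 14, 96.97 and 0.415 FPKM, were high in the same library.

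Among protein-coding genes with a known name, Mfsd10 had the largest ratio. This gene encodes a transporter of the major facilitator family and lies on chromosome 5 from 34633642 to 34637212. It had 42.7 FPKM in low-dose BMN/PAZA and 1.18 in BMN, with 1.32 in PAZA, 4.93 in Control and 2.58 at the high dose. Low-dose BMN/PAZA was the one high library of the 5. Afmid, of the kynurenine pathway, had 9.91 and 1.01 FPKM, with the other libraries between 2.44 and 3.05. These genes were chosen after their values were seen.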

How the data were processed

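RNA of 5 libraries, 1 per treatment, was sequenced, and the submitters' processing notes name HISAT2, StringTie and the mouse genome GRCm38. The deposited values are estimates per gene symbol in 5 tables that each hold a pair of libraries. No unit stands in the headers, and from their shape the deposited values were taken to be FPKM computed by the authors. Read counts were not used here, so depth and counting error are unknown. Columns of every table were matched to the labels.

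The low-dose column of the table with BMN was compared with its repeats in the tables with PAZA and with the high dose, and genes beyond 0.5% of the median ratio (constants 1.05 and 0.307) were left out. PAZA and Control values were brought to the scale of that table in this way, although the tables were scaled separately. High-dose values were taken as they stand in the table that pairs the high dose with BMN, with no constant applied. Log2 ratios used a pseudocount of 1, which understates the change of low genes, and a call of 2-fold is a log2 ratio of 1 in size. With 1 library per group no test was run. The genes and the 50 gene lists were chosen with earlier results of these data known.

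Genes were named by rule: the 15 highest and 15 lowest ratios at 5 FPKM or more, and in each list up to 3 abundant members with the 2 highest and 2 lowest ratios at 1 FPKM or more. Other named genes, the protein-coding ranking included, were chosen after their values were seen. Transcript lengths and gene positions are from GENCODE M21 on GRCm38, and promoter windows from RefSeq on GRCm38.p6. The alternatives tried were other pseudocounts, level filters, centring, scaling and agreement rules. Some genes are not reported here. Steps were tested on simulated data. Python 3.11.15, numpy 2.4.6, pandas 2.3.3 and matplotlib 3.10.9 were used.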

Additional observations from a re-analysis of the deposited data

How the results depend on the processing

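The number of genes 2-fold higher, 798, was 5187 with a pseudocount of 0.1, 494 with both columns rescaled to the same sum, and 433 among the 15474 genes whose BMN value is repeated in the table with the high dose, where 0 BMN values were off the constant, so the fall comes from genes that table does not list. It was 369 among protein-coding genes and 507 after centring within 10 groups of transcript length, 2 alternatives chosen after seeing the data. The number 2-fold lower, 432, was 1766 with the pseudocount of 0.1 and 664 at equal sums. The median over all genes, 0.08, was 0.24 with the pseudocount of 0.1. Rescaling to the same sum turned the list medians of NRF2 targets to −0.018, of chemokines to −0.0031 and of replication-dependent histones to −0.10. Centring by length turned those of NK and cytotoxic genes to −0.12 and of chemokines to −0.015. Medians under 0.1 in size also changed sign: by length those of macrophage genes (−0.09) and drug efflux (0.07), and at equal sums those of macrophage (−0.13), T cell (−0.03), DNA replication (−0.17), excision repair (−0.13), epithelial and mesenchymal (−0.06), heat shock (−0.16), and interleukin and growth factor genes (−0.08). Further medians this small changed sign under centring on all genes, the level filter or the other agreement rules, so no direction is read from any of them. The cause was not tested beyond what these settings change by construction. Equal sums moved 33 other list medians by more than 0.1, and centring by length moved 12. No paired analysis was possible because no group had a second sample. Depth is unknown, so no counting interval can be given.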

Other observations

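Other gene groups moved less than the skin and muscle genes. Of 22 endothelial genes 13 were lower in low-dose BMN/PAZA, none past 2-fold, with a median of −0.10. Among 14 adipocyte genes the median was −0.23, and Cfd and Pparg were 2-fold lower. All 5 of them at 1 FPKM or more were lower, with a median of −0.70, and the summed level was 43.97 FPKM in low-dose BMN/PAZA and 65.7 in BMN. The median was −0.03 for 12 dendritic cell genes, −0.05 for 25 genes of cholesterol synthesis, −0.02 for 20 complement genes and −0.18 for 21 genes of the BCL2 family. Of 26 replication-dependent histone genes 19 were higher, with a median of 0.14 that turned to −0.10 at equal sums, and Hist2h2aa1 was 2-fold higher and Hist1h2ab 2-fold lower. Only 4 erythroid genes and 6 Schwann cell genes agreed, and none of them passed 2-fold.

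The 425 genes left out as off a constant had a pattern of exact multiples. Among the 322 of them above 1 FPKM in the low-dose and PAZA libraries, the low-dose value in the table with BMN was 2 times the scaled PAZA value, within 0.01%, in 144 and 1.75 times in 24. The same was so for 1 and 1 of 10605 agreeing genes. In 176 of 319 genes off a constant, the scaled PAZA value equalled the scaled low-dose value of the table with the high dose within 0.01%, against 3 of 9543 agreeing genes. Interferon-stimulated genes (29 of 36) and DNA replication genes (16 of 41) were frequent among those left out. How these values arose was not tested.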
